A study of Mus musculus with 6 samples.

Results

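The comparison described here is that of wild-type mouse macrophages after 2 h of lipopolysaccharide (LPS) with wild-type macrophages left untreated. Its cells are those whose names in the count matrix carry the label of the untreated or the 2 h wild-type sample, without wells of more than 25000 unique molecular identifiers (UMIs). These are 419 of the 1362 cells of the series, 238 untreated and 181 at 2 h. The macrophages were grown from bone marrow in medium conditioned by L929 cells, carried wild-type Rad21 alleles and creERT2/creERT2 at the Rosa26 locus, and received 200 nM 4-hydroxytamoxifen at 96 h like the Rad21-/- macrophages of the series. Experiments took place on day 7, LPS was given at 10 ng/ml, and single cells were sorted into 384 well plates for MARS-seq, a method that counts the 3′ ends of messenger RNAs by their UMIs. The wild-type cells thus also carry the activated recombinase, and the number of mice behind a sample is not given in the sources used here. Each condition is 1 sample, so no test between conditions was possible, and the intervals given below (95%) cover counting error only. The question was which genes outside the 6 published classes of LPS-inducible genes had already moved at 2 h, and which of them had moved down.

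LPS is a cell wall component of Gram-negative bacteria that macrophages sense through CD14, MD-2 and the receptor TLR4. The adaptors MyD88 and TRIF carry the signal to the transcription factors NF-kappaB, AP-1 and IRF3, which act together with factors that define the macrophage, such as PU.1. Cytokine and chemokine genes, feedback inhibitors of NF-kappaB and RNA-binding proteins that destroy cytokine messages are among the first transcripts to accumulate, and secreted type I interferon drives a later round through STAT2 and IRF9.

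The kept cells held 1445275 UMIs when untreated and 1197415 at 2 h, with medians of 5859.5 and 5892 UMIs per cell and of 2739.5 and 2741 genes per cell. One untreated well and 5 wells at 2 h lay above the limit of 25000 UMIs, and these 5 held 45.5% of all UMIs of their sample. The untreated cells came from 8 library pools and the cells at 2 h from 7, of which 4 held at least 10 cells and are shown by pool. Pools are parts of 1 sample and not replicates, and no pool held cells of both time points, so pool and time cannot be told apart. No cell name was shared. Of the 10 macrophage markers, 8 reached the minimum level used below, among them Lyz2 at 6487 and 6485 counts per 1000000 UMIs (CPM), Cd68 at 1312 and 1307, and Csf1r at 311 and 307. Not all 8 were level. Their log2 ratios of 2 h over untreated ran from -0.40 (C1qa) to 1.57 (Cd14), with a median of -0.06, 1 above 0 and 7 below. Over all 10 markers the median was -0.16, with 9 below 0. The lowest was Mertk, which lay under the minimum at 27.7 and 12.5 CPM (log2 ratio -1.09, -2.11 to -0.26). The listed markers of B cells, T and NK cells, dendritic cells, mast cells and fibroblasts took at most 0.00733% of the UMIs of either sample for any 1 of these lists, those of neutrophils 0%, and none of these markers reached the minimum. Many of them are missing from the matrix, which holds 4 of 8 B cell, 2 of 9 T and NK cell and 3 of 8 dendritic cell markers. It holds 2 of 7 mast cell, 4 of 7 fibroblast, 2 of 10 neutrophil and 0 of 7 erythroid markers. The low sums therefore cannot show that such cells were absent.

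A gene was called at least 2-fold higher or lower from the ratio of its pooled CPM, with 1 UMI added to each sample, where the mean of the 2 pooled CPM was at least 50. Of 18429 genes in the matrix, 3554 reached this minimum. At 2 h, 152 of them were at least 2-fold higher (4.28%) and 32 at least 2-fold lower (0.9%), and the median log2 ratio of all 3554 was -0.08. The 6 classes accounted for 103 of the higher genes, which is 56% of their 184 genes above the minimum, and for none of the lower ones (0%). Outside the classes, 49 of 3370 genes were at least 2-fold higher (1.45%) and 32 were at least 2-fold lower (0.95%). The class genes together took 2.16% of the UMIs of untreated cells and 8.90% at 2 h, a 4.12-fold difference, so that the sum over all other genes was lower by necessity, at 97.8% and 91.1%. With CPM taken over the genes outside the classes only, 63 of those genes were at least 2-fold higher and 25 lower. When the 6 wells with more than 25000 UMIs were kept, 98 genes outside the classes were higher, 43 of the 49 among them, and 26 were lower, of which 13 were among the 32.

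**Figure D1:**
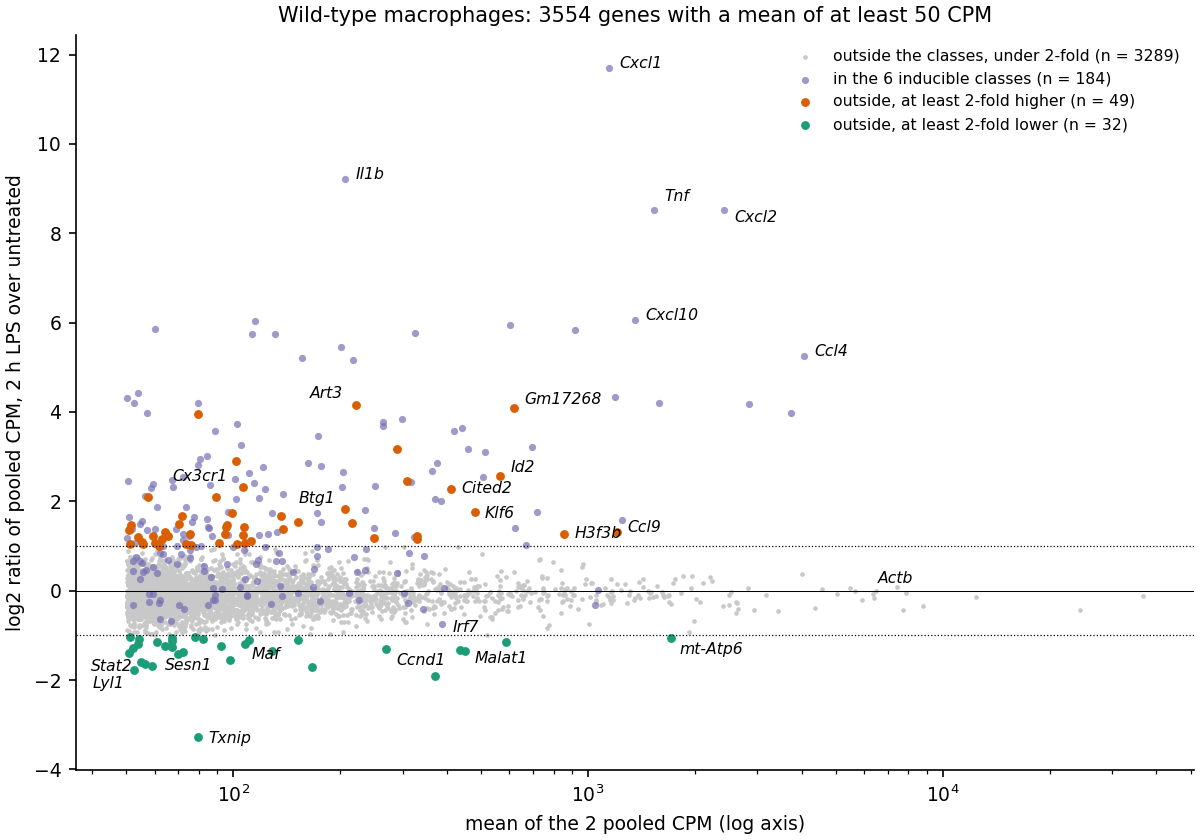
Log2 ratio of pooled CPM at 2 h over untreated (vertical) against the mean of the 2 pooled CPM (horizontal, log axis) for the 3554 genes that reached the minimum, with 2-fold marked by dotted lines. The 103 called class genes lie above the upper line, the 49 and 32 called genes outside the classes lie beyond either line, and the heights of Cxcl1 and Il1b depend on the 1 UMI added since neither had a UMI in untreated cells.

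Among the class genes, chemokines and cytokines had the highest ratios. Tnf, the early inflammatory cytokine, had 7.61 CPM in untreated cells and 3058 CPM at 2 h, and was found in 4.20% and 100% of cells. Cxcl1, a neutrophil chemokine, had no UMI in 238 untreated cells, where 3 counts would be 1.26% of cells with a UMI, and 2294 CPM at 2 h, at least 1105-fold higher. The class genes with the lowest ratios were Irf7 (488 and 290 CPM, log2 ratio -0.75), Fndc3a (82.3 and 50.9 CPM, -0.68), Tap1 (76.1 and 48.4 CPM, -0.64), Slfn9 (83.03 and 61.8 CPM, -0.42) and Psmb8 (391 and 293 CPM, -0.41), none of which was 2-fold lower. The class genes that the study followed by RNA-FISH included Peli1, a ubiquitin ligase of Toll-like receptor signalling (44.3 and 308 CPM, log2 ratio 2.78), Cd40, a co-stimulatory receptor (20.8 and 123.6 CPM, 2.54), and Atf3, a factor of the ATF/CREB family (104 and 367 CPM, 1.81), with separate pools for these 3. Sertad2 (24.9 and 73.5 CPM, 1.54) and Prdm1, which encodes the repressor BLIMP1 (44.97 and 99.4 CPM, 1.13), had overlapping pools. The mean CPM of Sertad2 lay just under the minimum, so it was not called. Actb, which encodes beta-actin, lies outside the classes and had 6511 and 6220 CPM (-0.07).

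The 49 higher genes outside the classes had a median log2 ratio of 1.35, from 1.01 to 4.16, and 11 of them passed 4-fold. Their interval for the ratio lay above 0 in 49 of 49 and above 2-fold in 26. The 4 pools at 2 h all exceeded the 8 untreated pools for 33 of the 49, a separation upward found in 1.34% of all genes outside the classes. Since 24 of the 49 reached the minimum only through their level at 2 h, these counts describe the genes that were chosen and are no measure of how often genes moved. Across the 21 other settings that left the CPM minimum as it was, 33 of the 49 stayed past 2-fold throughout. These settings include leaving out each of the 8 untreated pools and of the 7 pools at 2 h. Of the latter, 3 held only 8 cells together, so leaving them out changed little.

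Several transcription factors and cofactors were among these genes. Id2, an inhibitor of basic helix-loop-helix factors that lies at chr12:25093799-25096092 (GRCm38.p6), read at 122.9 to 284 CPM in the 8 untreated pools (median 150) and at 1192, 931, 788 and 1001 CPM in the 4 pools at 2 h. The pools did not overlap, the pooled CPM were 163.3 and 968, and the log2 ratio was 2.56 (2.36 to 2.78). Cited2, a cofactor that competes for the coactivators CBP and p300, read at 64.2 to 246 CPM (median 131.2) in untreated pools and at 755, 700, 632 and 657 CPM at 2 h. Its log2 ratio was 2.29 (2.07 to 2.52), every pool at 2 h lay above every untreated pool, and the share of cells with a UMI was 49.6% untreated and 91.2% at 2 h. Klf6, a zinc finger factor of the Kruppel-like family at chr13:5861489-5870393, stood at 130 to 267 CPM (median 208) and at 862, 765, 663 and 688 CPM. That is a log2 ratio of 1.77 (1.58 to 1.96), again without overlap of pools. Etv3, a repressor of the ETS family, had 33.9 and 109 CPM (log2 ratio 1.67), and Cebpd, a C/EBP factor of the acute phase response, had 62.96 and 150 CPM (1.25), both with separate pools. Plagl2 (36.0 and 75.2 CPM, log2 ratio 1.05) and Tgif1 (38.8 and 86.9 CPM, 1.15) were less firm, since their pools overlapped.

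Genes of signalling and of RNA regulation were also among the 49. Tnip1, whose product binds the ubiquitin-editing inhibitor A20, read at 27.3 to 64.1 CPM (median 49.5) in untreated pools and at 128, 159, 160 and 110 CPM at 2 h. The pooled values were 51.9 and 139 CPM, with a log2 ratio of 1.42 (1.02 to 1.84), and no pools overlapped. Btg1, an antiproliferative protein that recruits the deadenylase complex, read at 42.9 to 170.6 CPM (median 89.1) and at 363, 255, 410 and 297 CPM, a log2 ratio of 1.82 (1.54 to 2.12). Its share of positive cells was 35.3% untreated and 75.7% at 2 h. Cpeb4, an RNA-binding protein of cytoplasmic polyadenylation, had 65.04 and 207 CPM (log2 ratio 1.66), with overlapping pools. Sgk1, a kinase downstream of PI3K, had 45.7 and 152.8 CPM (1.73), Rhob, an endosomal small GTPase, 36.7 and 104 CPM (1.49), and Nck1, an adaptor of tyrosine kinase signals to actin, 27.0 and 75.997 CPM (1.47). Pools were separate for these 3 genes. Mylip, the ubiquitin ligase that degrades the LDL receptor, had 28.4 and 73.5 CPM (1.35), and Herpud1, a protein of ER-associated degradation, 38.8 and 81.8 CPM (1.07), both with overlapping pools.

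Surface and secreted proteins formed the next group. Cx3cr1, the receptor of fractalkine, read at 0 to 55.0 CPM (median 34.8) in untreated pools and at 202, 159, 142.5 and 178.8 CPM at 2 h. It was found in 19.3% of untreated cells and in 64.1% of cells at 2 h, and its log2 ratio was 2.31 (1.89 to 2.80). Ccl9, a chemokine that untreated macrophages already expressed in 88.2% of cells, read at 423 to 860 CPM (median 784) and at 1707, 1840, 1340 and 1832 CPM, a log2 ratio of 1.31 (1.20 to 1.42). Ptafr, the receptor of platelet-activating factor, stood at 47.8 to 146.7 CPM (median 78.6) and at 252, 214, 146.9 and 178.8 CPM (log2 ratio 1.39), with the lowest pool at 2 h next to the highest untreated one. Ifngr1, a chain of the interferon gamma receptor, had 66.4 and 139 CPM (log2 ratio 1.06) and separate pools, and so did Il7r, the interleukin 7 receptor chain, with 32.5 and 75.2 CPM (1.19). Chromatin genes were represented by H3f3b, which encodes the histone variant H3.3, at 404 to 591 CPM in untreated pools and 1307, 1165, 1162 and 1136 CPM at 2 h (log2 ratio 1.27), and by Hmgb2, a DNA-bending protein, at 79.7 to 165 CPM and 285, 321, 316 and 327 CPM (1.504). With all wells kept, H3f3b was no longer 2-fold higher. Slfn2, a Schlafen protein needed for immune cell quiescence, had 197 and 461 CPM (log2 ratio 1.22), without overlap of pools.

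Several of the highest ratios belonged to gene models that overlap or resemble a class gene. Art3 (chr5:92331799-92414628) had 22.8 and 421 CPM and the highest log2 ratio outside the classes, 4.16 (3.70 to 4.76), and its model spans Cxcl10, which had 39.4 and 2676 CPM. Gm17268, with 67.8 and 1168 CPM and a log2 ratio of 4.09, lies across Ccl2 on the opposite strand in an older mouse annotation. Whether the counting used the strand is not given in the sources used here, so UMIs of such pairs cannot be told apart. Bcl2a1d, an antiapoptotic Bcl2 family member with near-identical copies, had 8.995 and 150 CPM (log2 ratio 3.96), beside its class gene copy Bcl2a1b with 13.1 and 164.5 CPM. BC048502 (57.4 and 523 CPM, log2 ratio 3.17), Gm29094 (23.5 and 180 CPM, 2.90) and A930011G23Rik (94.1 and 522 CPM, 2.46) are unnamed models with separate pools. Spryd7, a SPRY domain gene, read at 18.3 to 48.7 CPM in untreated pools and at 123.8 to 161.98 CPM at 2 h, a log2 ratio of 2.11 (1.66 to 2.62). Of the 81 called genes outside the classes, 69 matched a RefSeq name, and 29 of these overlap another model.

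The 32 lower genes had a median log2 ratio of -1.26, from -1.03 to -3.27, and 1 of them passed 4-fold. Their interval lay below 0 in 32 of 32 and beyond 2-fold in 12. For 9 of the 32 every pool at 2 h lay below every untreated pool, where 1.78% of all genes outside the classes showed such a separation downward. The untreated level alone carried 18 of the 32 past the minimum. These counts too describe the genes that were chosen and are no measure of how often genes moved. Across the 21 other settings, 7 of the 32 stayed past 2-fold throughout, and of these Txnip, Lyl1 and Stat2 also had separate pools.

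**Figure D2:**
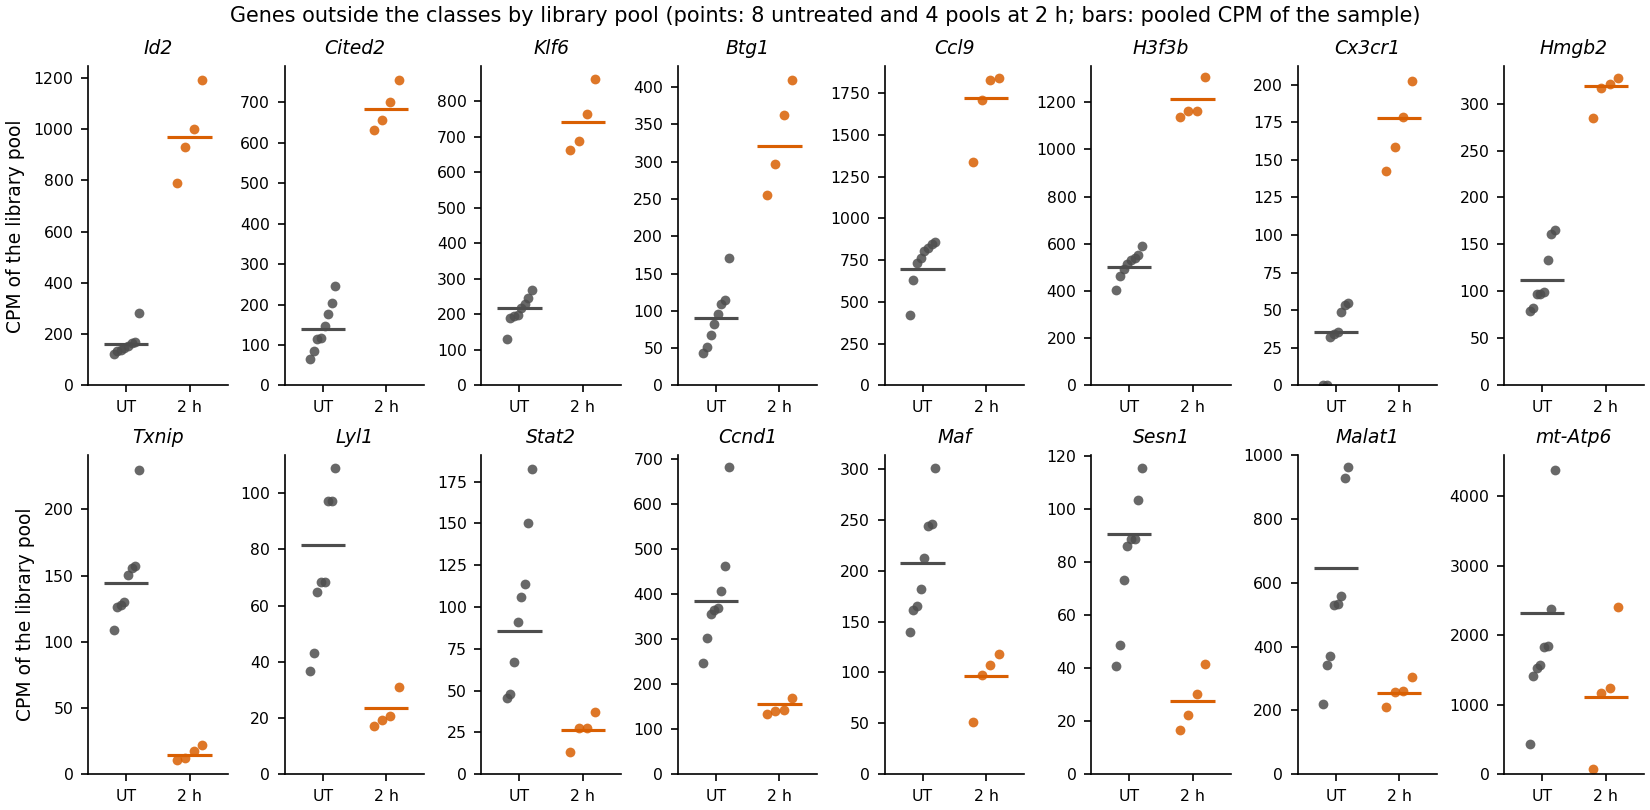
CPM (vertical, from 0) of each library pool, 8 untreated (UT) and 4 at 2 h, for 8 higher and 8 lower genes outside the classes, with bars at the pooled CPM of the sample. For the 8 higher genes shown no pools overlap, while among the lower ones Sesn1 at 40.95 untreated and 41.4 CPM at 2 h, Malat1 and mt-Atp6 overlap.

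Txnip showed the largest fall among genes above the minimum. It encodes the thioredoxin-interacting protein, which limits glucose uptake and is a known target of the glucose sensor MondoA, and lies at chr3:96557957-96561857. Its untreated pools read at 109 to 230 CPM (median 140) and its pools at 2 h at 12.4, 17.2, 22.3 and 11.002 CPM, so the groups were far apart. The pooled values were 144.6 and 14.2 CPM, 10.2-fold lower at 2 h, with a log2 ratio of -3.27 (-4.16 to -2.63). It was found in 53.8% of untreated cells and 8.84% of cells at 2 h, and the ratio ranged from -3.44 to -2.39 over the 21 other settings. The overlapping model Gm15441 had 21.4 and 3.34 CPM. Sesn1, a sestrin that is induced by p53 and FoxO factors and dampens mTORC1, read at 40.95 to 115.4 CPM (median 87.2) untreated and at 16.5, 41.4, 22.3 and 30.3 CPM at 2 h. Its log2 ratio was -1.69 (-2.31 to -1.16), and a single pool at 2 h reached the lowest untreated one.

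The lower genes also held 3 factors of blood cell and macrophage identity and a cyclin. Lyl1, a basic helix-loop-helix factor of blood progenitors at chr8:84701423-84704716, read at 36.7 to 109 CPM (median 68.3) untreated and at 20.6, 17.2, 31.2 and 19.3 CPM at 2 h, a log2 ratio of -1.77 (-2.45 to -1.20) with separate pools. Maf, the c-Maf factor of resident macrophages, stood at 140 to 301 CPM (median 197) and at 107, 51.7, 97.9 and 118 CPM. Its log2 ratio was -1.10 (-1.43 to -0.80), its pools were separate, and with all wells kept the ratio was -0.67. Without untreated pool 2323AA it was -0.91, and without the 2 h pool that read 51.7 CPM it was -0.90, both short of 2-fold. Bhlhe41, a repressor linked to macrophage self-renewal, had 92.7 and 41.8 CPM (log2 ratio -1.13), with overlapping pools. This gene stayed past 2-fold in 16 of 21 settings, with a ratio of -0.59 in the weakest. Ccnd1, cyclin D1 of the G1 phase, read at 246 to 682 CPM (median 367) untreated and at 140, 134, 169.2 and 143.02 CPM at 2 h, and its log2 ratio was -1.30 (-1.55 to -1.06). It stayed past 2-fold in 20 of 21 settings and stood at -0.90 with all wells kept. The neighbouring LTO1, which overlaps it, had 60.9 and 30.9 CPM.

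Stat2, a subunit of the interferon-stimulated factor ISGF3, was lower while many interferon-stimulated genes were not. Its untreated pools read at 45.8 to 183 CPM (median 98.7) and its pools at 2 h at 37.1, 27.6, 13.4 and 27.5 CPM, without overlap. The pooled values were 85.8 and 26.7 CPM, with a log2 ratio of -1.65 (-2.29 to -1.11). Irf9, which also belongs to ISGF3, had 61.6 and 61.8 CPM (log2 ratio 0.01). Tnfaip8l2, also known as TIPE2 and described as an inhibitor of Toll-like receptor signalling, read at 81.2 to 284 CPM (median 143) and at 41.2, 65.5, 53.4 and 41.3 CPM, with a log2 ratio of -1.55 (-2.01 to -1.14). Twf2, an actin-binding twinfilin (90.6 and 37.6 CPM, log2 ratio -1.25), Rsrp1, an arginine and serine-rich protein (150 and 65.1 CPM, -1.19), and AI413582 (112 and 52.6 CPM, -1.08) completed the 9 genes with separate pools. With all wells kept, the log2 ratio of Twf2 was -0.51, that of Rsrp1 -0.81, that of AI413582 -0.87 and that of Tnfaip8l2 -0.92, all short of 2-fold. AI413582 kept 2-fold in 17 of 21 settings and also lost it narrowly with CPM over the genes outside the classes (-0.97), with median centring, and without the 2 h pool in which it read 41.2 CPM.

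Metabolic genes were scattered among the rest. Scd2, a stearoyl-CoA desaturase, had 184.7 and 71.8 CPM (log2 ratio -1.35), and its pools came close without separating, at 95.6 CPM for the lowest untreated and 107 CPM for the highest at 2 h. Uqcrb, a subunit of respiratory complex III, had 83.03 and 26.7 CPM (log2 ratio -1.60), but its untreated pools spread from 0 to 157 CPM. The mitochondrially encoded mt-Atp6, an ATP synthase subunit with a near-identical nuclear copy, spread from 440 to 4379 CPM in untreated pools and from 72.4 to 2413 CPM at 2 h, so the pools overlapped over most of their range around pooled values of 2314 and 1114 CPM. Malat1, a nuclear long noncoding RNA, had 645 and 253 CPM (log2 ratio -1.35), with pools of 220 to 963 and of 209 to 305 CPM. The unnamed model Gm43743 had 583 and 155 CPM, the second largest ratio among the lower genes (-1.90, -2.15 to -1.68), but its pools overlapped widely, at 73.3 to 1071 CPM untreated and 3.45 to 352 CPM at 2 h. The unnamed 2010107E04Rik (102 and 37.6 CPM, log2 ratio -1.41) and Rpl34-ps2, a ribosomal protein pseudogene whose reads may be shared with its parent (74.03 and 27.6 CPM, -1.40), also had overlapping pools. The 4 models Gm10800, Gm10801, Gm26870 and Gm21738, which varied together by pool, summed to 40.6 to 5319 CPM (median 812) in untreated pools and to 89.04 to 1449 CPM (median 568) at 2 h. The groups overlapped, and without untreated pool 2324AA the log2 ratio of Gm21738 turned to 0.38 and its ratio with all pools was -1.10.

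The shares of positive cells followed the pooled levels. They were higher at 2 h for 49 of 49 higher genes and lower for 32 of 32 lower genes, with all UMIs and also after each cell was thinned to 3800 UMIs, which left out 47 untreated cells and 21 cells at 2 h. Over all 3554 genes the share was higher at 2 h for 58.1% with all UMIs and for 45.9% after thinning, and the log2 ratio lay above 0 for 41.3%. The median share over the 49 genes was 23.5% untreated and 54.1% at 2 h (16.2% and 41.9% after thinning). Over the 32 lower genes it was 40.97% and 23.2% (31.9% and 15.3%). Both ratio and share come from the same UMIs, so their direction is shared by construction.

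In single cells, the 6 classes together took 1.28% to 4.28% of the UMIs of an untreated cell (median 2.10%) and 5.19% to 14.5% at 2 h (median 9.11%), so that 181 of 181 cells at 2 h lay above every untreated cell. Of the single classes, class C alone gave the same count, with medians of 0.537% and 5.63%. Above the highest untreated cell lay 92 of 181 cells for class A1+2, 80 for D, 25 for B, 1 for E and 1 for F. For class F 54 of 181 cells at 2 h lay above the untreated median, with medians of 0.492% untreated and 0.414% at 2 h. The 49 higher genes outside the classes took a median of 0.413% of the UMIs of an untreated cell and 1.42% at 2 h. The highest untreated cell stood at 0.822%, and 176 of 181 cells at 2 h lay above it. The 32 lower genes took 0.724% and 0.347%, and 4 of 181 cells at 2 h lay above the untreated median. This sum leans on a few genes and models with overlapping pools. The highest untreated levels among the 32 were those of mt-Atp6 (2314 CPM), Gm26870 (811), Malat1 (645), Gm10801 (621) and Gm43743 (583 CPM). The values of the lower set therefore do not describe all 32 genes alike. Since both gene sets were chosen on these cells, the values describe how evenly the difference was spread and are no further evidence for it.

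**Figure D3:**
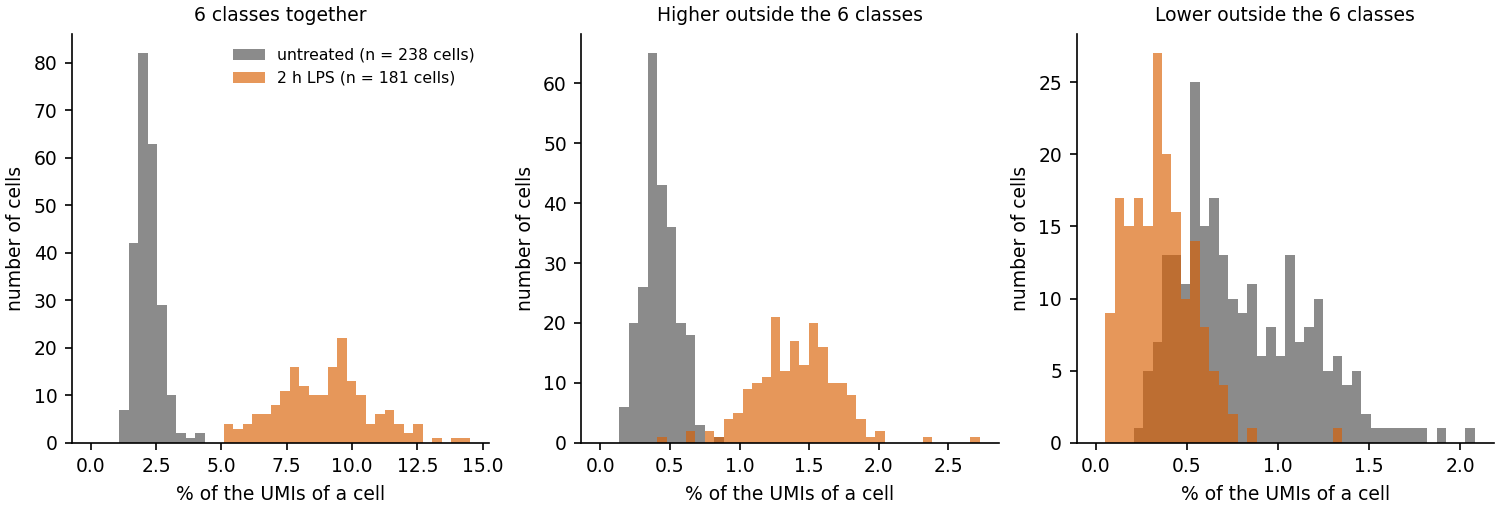
Number of cells (vertical) by the percentage of a cell's UMIs (horizontal) that fell on the 6 classes, the 49 higher and the 32 lower genes outside them, for 238 untreated cells and 181 cells at 2 h. The distributions are apart for the classes (highest untreated cell 4.28%, lowest at 2 h 5.19%), nearly apart for the higher genes, and overlap for the lower genes around medians of 0.724% and 0.347%. The sum of the lower genes leans on mt-Atp6 and a few other genes and models with overlapping pools.

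Pathway lists show which functions the called genes belong to, and counts refer to list members above the minimum. The shares to set beside these counts are 4.28% of all 3554 genes at least 2-fold higher and 0.9% lower. Of 15 chemokines, 12 were at least 2-fold higher, with a median log2 ratio of 4.18, and of these only Ccl9 lies outside the classes. Ccl6 (301 and 399 CPM, log2 ratio 0.41) and Pf4 (223 and 209 CPM, -0.10) were the other 2 outside them. Of 15 NF-kappaB subunits and feedback genes, 12 were higher (median 2.11), again with 1 outside, Tnip1, while the subunit Rela had 51.9 and 83.5 CPM (log2 ratio 0.68). Of 12 genes of LPS sensing and Toll-like receptor signalling 3 were higher, namely Cd14, Tlr2 and Peli1, and none lower. The receptor itself, Tlr4, had 64.3 and 59.3 CPM (log2 ratio -0.11), Myd88 72.0 and 67.6 CPM (-0.09).

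Lists of messenger RNA decay and of cell survival held calls in the higher direction alone among the members above the minimum. Of 8 decay factors 4 were higher and none lower (median log2 ratio 1.24), whereas over all 26 members with at least 20 UMIs the median was 0.02, with 14 above and 12 below 0. The higher ones included the class gene Zfp36 (37.4 and 490 CPM), which encodes the cytokine message destabiliser TTP, with Btg1 the member outside. The deadenylase scaffold Cnot1 had 76.1 and 75.997 CPM. Of 11 p53 targets and Bcl2 family genes 7 were higher and none lower (median 2.34), against a median of 0.20 over the 23 members with at least 20 UMIs, with 13 above and 10 below 0. The higher ones included Bcl2l11, which encodes the proapoptotic BIM (17.99 and 151 CPM). The antiapoptotic Mcl1 lay just under 2-fold at 288 and 570 CPM (log2 ratio 0.98), whereas Bax had 218 and 164.5 CPM (-0.40). Sesn1, which p53 also induces and which was called lower (-1.69), was placed in the FoxO-type list and not in this one. Of 4 G1 cyclins and Cdk inhibitors, the inhibitor Cdkn1a was higher (341 and 905 CPM, log2 ratio 1.41) and Ccnd1 lower.

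The list of macrophage lineage and nuclear receptor factors held calls in both directions. Of 17 members 3 were higher (Id2, Cebpb and Ets2) and 3 lower (Lyl1, Maf and Bhlhe41), around a median log2 ratio of 0.08. Of the lower ones, Lyl1 stayed past 2-fold in 21 of 21 settings, Maf in 18 and Bhlhe41 in 16. Spi1, which encodes PU.1, had 339 and 391 CPM (log2 ratio 0.21), and Irf8, an interferon regulatory factor of monocyte lineage, had 94.1 and 49.3 CPM (-0.92), just short of 2-fold but with separate pools of 61.5 to 142 and 32.99 to 57.8 CPM. Of 31 interferon-stimulated genes 8 were higher and 1, Stat2, was lower (median 0.07). Rsad2 (91.3 and 828 CPM, log2 ratio 3.17) and Isg15 (442 and 892 CPM, 1.01) stood at the higher side, Irf7 and Stat2 at the other.

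Other lists held no calls or a small number of them, where 4.28% of all genes were at least 2-fold higher and 0.9% lower. In short lists a small number of calls need not be a small share. None of 34 lysosomal, 10 glycolytic, 75 cytosolic ribosomal protein, 14 MHC class I, 7 S-phase or 6 ribosome biogenesis genes was past 2-fold. Their median log2 ratios lay between -0.26 and -0.02, where that of all genes was -0.08. Of 40 nuclear genes of oxidative phosphorylation only Uqcrb was called, with a median of -0.22 and 33 of 40 below 0. Of all 3554 genes, 2087 lay below 0. Ndufa13, a complex I subunit, had 378 and 233 CPM (log2 ratio -0.69) and separate pools of 337 to 528 and of 193 to 286 CPM. Of 11 mitochondrially encoded genes 1 was lower (median -0.38), and the median cell gave 2.68% of its UMIs to them untreated and 1.95% at 2 h. Of 23 scavenger, phagocytic and Fc receptors only the class gene Clec4e was higher (90.6 and 662 CPM), with Trem2 at 572 and 446 CPM (-0.36) and Mrc1 at 337 and 263 CPM (-0.36). Of 15 genes of cholesterol handling, Ch25h and Mylip were higher and Scd2 lower, while Fdps, a synthase of the sterol pathway (99.6 and 54.3 CPM, -0.86), was not called. Of 15 mitosis and G2/M genes, Hmgb2 alone was higher, with Mki67 at 89.3 and 103 CPM (0.20) and Top2a at 109 and 128.6 CPM (0.24).

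Among the remaining lists, 5 of 9 cytokine and growth factor genes (median log2 ratio 2.63) and 5 of 9 immediate-early transcription factors (1.25) were higher and none lower. Cebpd was the single immediate-early member outside the classes that was called. Of 5 MAP kinase phosphatases and ERK feedback genes 2 were higher and 1 lower. The lower one was Dusp7, a cytosolic ERK phosphatase with 105.2 and 50.9 CPM, whose ratio of -1.03 stayed past 2-fold in 11 of 21 alternative settings and was -0.40 with all wells kept, and whose pools overlapped. Of 12 JAK, STAT and SOCS genes 2 were higher, Socs3, the feedback inhibitor of gp130 receptors (2.77 and 227 CPM), and Ifngr1. Stat2, which was called lower, was placed in the interferon-stimulated list and not in this one. The list of colony-stimulating and other cytokine receptors had 8 genes above the minimum, of which 3 were higher, namely Tnfrsf1b, a TNF receptor, Plaur, the urokinase receptor, and Ptafr, which is a G protein-coupled receptor although it was placed in this list. Of 6 genes in the separate list of G protein-coupled receptors 1 was higher, Cx3cr1. Small numbers of calls, in the higher direction alone, were found among 17 antioxidant genes (2 higher, with Sod2 at 144 and 597 CPM), 13 ER chaperone and unfolded protein genes (1 higher, Herpud1), 31 actin genes (2 higher, Marcksl1 and Rhob) and 5 complement genes (1 higher, C3 at 37.4 and 118 CPM). Over all 3554 genes, 4.28% were higher, a smaller share than in any of these lists, each of which held only 1 or 2 calls. The FoxO-type and MondoA-type list was split, with Txnip and Sesn1 lower and Cited2 higher among its 3 members above the minimum.

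**Figure D4:**
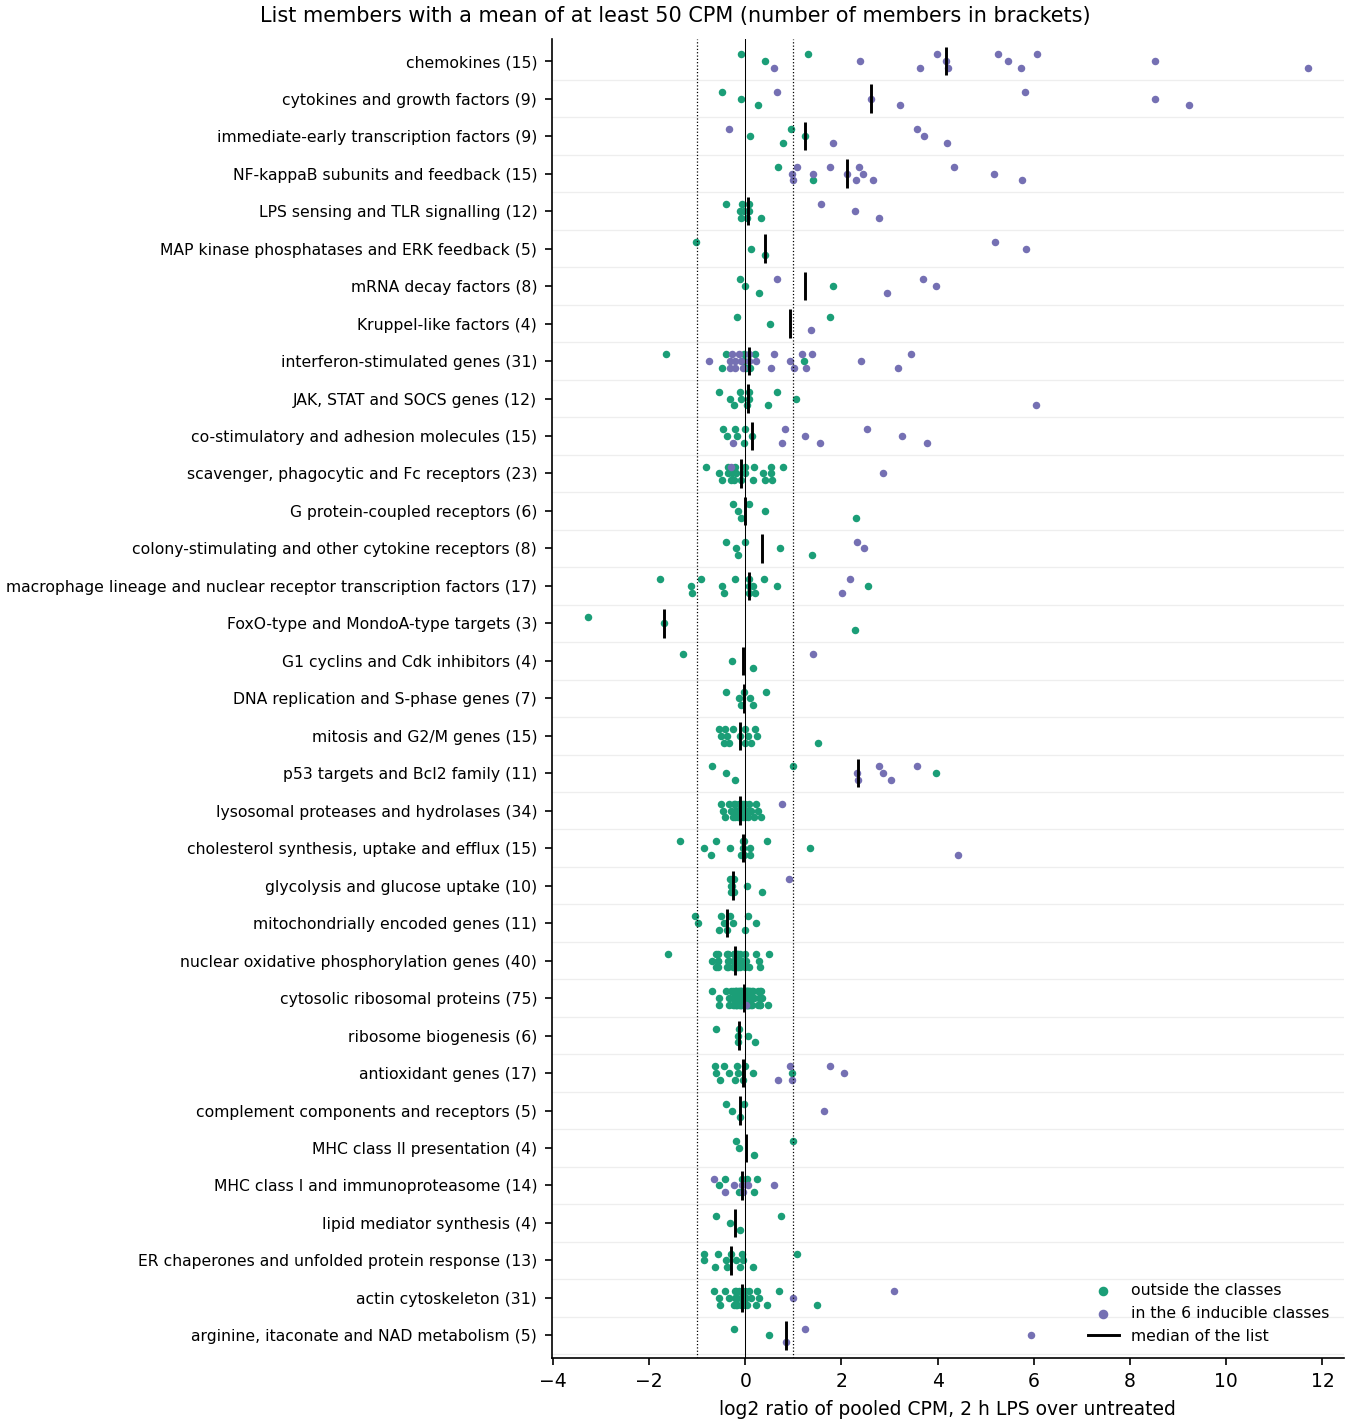
Log2 ratio of pooled CPM at 2 h over untreated (horizontal, dotted lines at 2-fold) for the members of each list that reached the minimum, with the list's median as a bar. The median of chemokines stands at 4.18 and that of NF-kappaB genes at 2.11, while lysosomal (-0.10) and ribosomal protein genes (-0.03) gather around 0, and the farthest points of Cxcl1 and Il1b depend on the added UMI.

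Promoter sequences were compared because kappaB sites mark many LPS-inducible promoters. RefSeq promoters of GRCm38.p6, from 250 bases before to 50 after the start, were at hand for 36 of the 49 higher genes, 17 of the 32 lower genes and 85 of the 103 higher class genes. On either strand, a kappaB motif was present for 3 of 36 higher genes outside the classes (8.33%), 1 of 17 lower genes (5.88%) and 21 of 85 class genes (24.7%), against 7.23% of the 2419 genes above the minimum and 5.14% of the 27025 genes of the whole table. The 3 genes were Tnip1, Ccl9 and Hmgb2, and they are shown beside the class genes Cxcl1 and Cxcl2. The core of the interferon-stimulated response element (ISRE) was present for 2 of 17 lower genes, Stat2 and Fcrla (11.8%), and for 1 of 36 higher genes, Sgk1 (2.78%). It was also present for 11 of 85 higher class genes (12.9%) and for 5.25% of genes above the minimum. TATAAA was found for 6 of 36 (16.7%), 1 of 17 (5.88%), 25 of 85 (29.4%) and 10.8% of genes above the minimum. TGACGTCA was found for none of the called genes outside the classes, for 5 of 85 higher class genes (5.88%) and for 3.39% of genes above the minimum. A CArG box was found for Herpud1 alone of the called genes outside the classes. Among the higher class genes 1 of 85 had it (1.18%), against 1.74% of genes above the minimum. Matches on both strands can overlap, since a kappaB motif can read nearly alike on either strand. A match is a description of the letters and not a measured site. Each sequence below runs 5′ to 3′ along its gene, with the matches in capitals. Tnip1 (chr11:54962891-54963190, minus strand) has its kappaB letters 58 bases before the start, Ccl9 (chr11:83578587-83578886, minus) 35 bases before it and TATAAA farther up, Hmgb2 (chr8:57511593-57511892, plus) 43, Cxcl1 (chr5:90890995-90891294, plus) 71 and Cxcl2 (chr5:90903649-90903948, plus) 97. Stat2 (chr10:128270248-128270547, plus) has the interferon element core on the other strand 222 bases before the start, and Txnip (chr3:96557707-96558006, plus), shown as the largest fall above the minimum, has none of these letters in the window.
Tnip1: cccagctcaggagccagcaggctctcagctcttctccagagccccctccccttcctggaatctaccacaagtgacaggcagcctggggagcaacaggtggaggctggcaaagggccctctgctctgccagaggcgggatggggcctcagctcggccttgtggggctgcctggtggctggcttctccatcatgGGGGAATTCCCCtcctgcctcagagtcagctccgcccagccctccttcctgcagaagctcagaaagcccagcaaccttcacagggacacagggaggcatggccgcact
Ccl9: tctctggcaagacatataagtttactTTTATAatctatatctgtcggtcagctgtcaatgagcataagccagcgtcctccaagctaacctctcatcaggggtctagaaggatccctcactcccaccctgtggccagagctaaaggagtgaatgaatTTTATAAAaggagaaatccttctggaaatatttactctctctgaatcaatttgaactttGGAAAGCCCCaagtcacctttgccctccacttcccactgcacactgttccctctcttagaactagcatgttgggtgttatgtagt
Hmgb2: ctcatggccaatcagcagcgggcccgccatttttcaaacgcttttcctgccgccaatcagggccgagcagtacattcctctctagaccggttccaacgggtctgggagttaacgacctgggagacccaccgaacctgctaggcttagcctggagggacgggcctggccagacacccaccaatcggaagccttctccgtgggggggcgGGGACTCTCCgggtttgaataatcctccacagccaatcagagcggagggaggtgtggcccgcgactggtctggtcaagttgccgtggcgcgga
Cxcl1: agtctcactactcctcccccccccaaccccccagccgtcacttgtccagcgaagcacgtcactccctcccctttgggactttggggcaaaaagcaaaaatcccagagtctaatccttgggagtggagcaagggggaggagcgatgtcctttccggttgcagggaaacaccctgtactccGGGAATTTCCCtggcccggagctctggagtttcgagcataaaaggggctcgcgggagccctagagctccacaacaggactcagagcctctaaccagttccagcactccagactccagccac
Cxcl2: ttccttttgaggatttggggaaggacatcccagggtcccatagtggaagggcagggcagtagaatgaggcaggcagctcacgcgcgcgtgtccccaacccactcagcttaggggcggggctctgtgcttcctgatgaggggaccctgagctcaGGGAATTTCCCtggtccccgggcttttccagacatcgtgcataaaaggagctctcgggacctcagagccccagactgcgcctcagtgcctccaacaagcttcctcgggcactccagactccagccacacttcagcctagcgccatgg
Stat2: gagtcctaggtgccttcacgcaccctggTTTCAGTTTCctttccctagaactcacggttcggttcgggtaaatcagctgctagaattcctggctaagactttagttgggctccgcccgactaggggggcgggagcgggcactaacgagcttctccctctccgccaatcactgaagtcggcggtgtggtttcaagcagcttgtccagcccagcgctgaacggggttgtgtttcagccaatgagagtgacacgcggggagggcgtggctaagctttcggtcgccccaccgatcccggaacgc
Txnip: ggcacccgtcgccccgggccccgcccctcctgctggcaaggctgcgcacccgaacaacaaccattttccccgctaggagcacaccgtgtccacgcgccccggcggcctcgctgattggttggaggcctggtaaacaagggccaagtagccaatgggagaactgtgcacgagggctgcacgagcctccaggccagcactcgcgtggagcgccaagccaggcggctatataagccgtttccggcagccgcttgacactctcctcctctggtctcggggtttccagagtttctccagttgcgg

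The levels at 8 h of LPS, from 253 wild-type cells, stand beside these values as levels only, since they share the untreated sample. Of the 49 higher genes, 18 stood above their 2 h level at 8 h, 20 between the 2 h and the untreated level, and 11 below the untreated level. Cited2 had 140 CPM untreated, 684 at 2 h and 30.2 at 8 h, Hmgb2 112, 319 and 16.7 CPM, and Rhob 36.7, 104 and 6.43 CPM, so these 3 stood highest at 2 h. Tnip1 (51.9, 139 and 270 CPM) and Ccl9 (695, 1720 and 2555 CPM) stood higher still. Of the 32 lower genes, 18 were lower still at 8 h, 12 lay between and 2 stood above the untreated level. Txnip remained at 14.1 CPM, Ccnd1 had 384, 155 and 6.43 CPM and Lyl1 81.6, 23.4 and 10.9 CPM, whereas Stat2 had 85.8, 26.7 and 194 CPM.

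Rad21-/- macrophages, which lack the cohesin subunit RAD21 and have an untreated sample of their own, gave a second reading in 267 untreated cells and 184 cells at 2 h. Cells of both genotypes shared library pools at each time point, so the samples are not independent in pool. The log2 ratio of Rad21-/- cells was above 0 for 49 of the 49 higher genes, where 50.3% of all 3554 genes were above 0, and 36 of the 49 were at least 2-fold higher (4.73% of all genes). It was below 0 for 31 of the 32 lower genes, where 49.7% of all genes were below 0, and 8 of the 32 were at least 2-fold lower (0.9% of all genes). The exception was Tmem134, with 0.05. Txnip had 192 and 31.2 CPM in these cells (log2 ratio -2.59), Lyl1 103 and 50.5 CPM (-1.01), and Stat2 33.4 and 17.6 CPM (-0.88). Sesn1 had 146 and 118 CPM, a log2 ratio of -0.30 where wild-type cells had -1.69. The median ratio of the 32 genes was -1.26 in wild-type and -0.64 in Rad21-/- cells, that of the 49 genes 1.35 and 1.27. The genes were chosen by their wild-type ratio, which by itself favours smaller values in the other genotype, and the difference between genotypes was not tested.

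**Figure D5:**
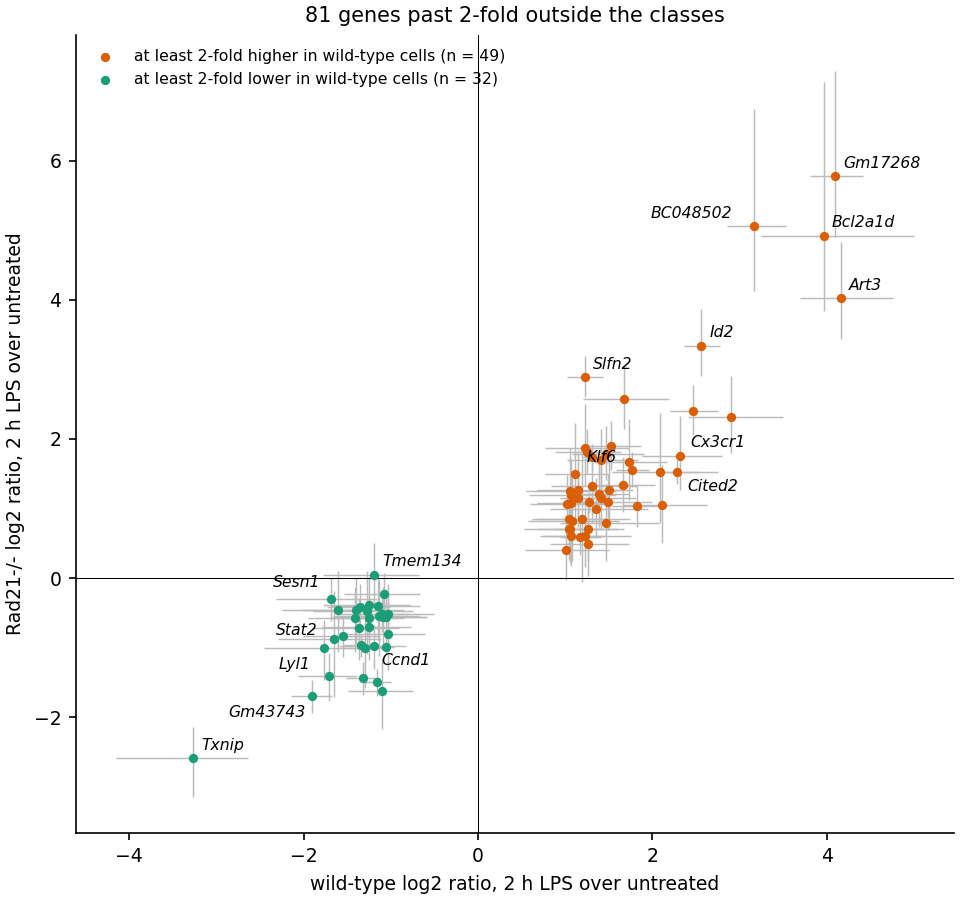
Log2 ratio at 2 h over untreated in Rad21-/- cells (vertical) against wild-type cells (horizontal) for the 81 called genes outside the classes, with 95% counting intervals as bars. The 49 higher genes lie above 0 on both axes and 31 of the 32 lower genes below 0 on both, with Txnip at -3.27 and -2.59.

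Some low transcripts outside the minimum were picked after their values had been seen. Dusp6, the phosphatase that switches off ERK, had 95 UMIs in untreated cells and 6 at 2 h, that is 65.7 and 5.01 CPM and a log2 ratio of -3.51 (-5.20 to -2.54), beyond that of Txnip. Its pools read at 27.5 to 150 and at 0 to 8.25 CPM, without overlap. Hhex, a homeobox factor, had 50 and 3 UMIs, a log2 ratio of -3.40 with 1 UMI added (-6.11 to -2.16). Tsc22d3, which encodes the glucocorticoid-induced protein GILZ and belongs with Txnip to the FoxO-type list, had 48.4 and 13.4 CPM (log2 ratio -1.79). In the other direction, Tfec, a factor of the MiT family found in macrophages, had 5.54 and 81.01 CPM (log2 ratio 3.72), and Csf2, which encodes GM-CSF, had 0 UMIs in untreated cells and 50 at 2 h, in 9.39% of cells.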

How the data were processed

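The authors prepared MARS-seq libraries from singly sorted macrophages, assigned reads to pools and cells by their barcodes, trimmed polyT stretches, aligned with GEMTools to GRCm38.p4 with Gencode annotation, dropped wells by spike-in share, mapped share and total reads, and collapsed unambiguously mapped reads by UMI. The deposited values are raw UMI counts, not normalized. The strand setting is not given in the sources used here. Wells above 25000 UMIs were left out here and no doublet caller was run, since cells were sorted singly. UMIs were summed per sample and scaled to CPM. Ratios had 1 UMI added, shares carry Clopper-Pearson, CPM Poisson and ratios conditional binomial exact intervals (95%), which cover counting error only, and a share of 0 is given with the floor of 3 counts. Cells were thinned to 3800 UMIs with a fixed seed. Sums and intervals used pandas 2.3.3, numpy 2.4.6 and scipy 1.17.1 under Python 3.11.15, and were tested on simulated data. Promoters and coordinates come from RefSeq (GRCm38.p6).

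The genes and lists were chosen with earlier results of these data known. Among genes with a mean of at least 50 CPM, the rule took the 10 largest rises and falls outside the classes, the 5 largest inside, the 5 most abundant called genes outside in each direction, and up to 6 members of each list with any member whose role was needed. The genes that the study measured by RNA-FISH were taken at any level. The text prints only some of the list members and RNA-FISH genes that the rule took. Other called genes and all other genes under the minimum were named after their values were seen. Alternatives were all wells, means over cells, CPM outside the classes, median centring, equal weight per pool, CPM minimums of 20, 100 and none, thinning, and leaving out each pool. The 21 settings counted for single genes are these without the CPM minimums. A few genes are not reported here.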

Additional observations from a re-analysis of the deposited data

Results flagged for a closer look

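Of 266 genes named or called, 4 had log2 ratios of opposite sign in the genotypes with both counting intervals away from 0. The complement genes C1qa (0.31 in Rad21-/- and -0.40 in wild-type cells) and C1qc (0.19 and -0.28) and the receptor gene C3ar1 (0.77 and -0.25) were higher at 2 h in Rad21-/- cells and lower in wild-type cells. Cd74, the invariant chain of MHC class II, was lower in Rad21-/- cells (-1.35, with 319 and 125 CPM) and higher in wild-type cells (0.99, with 83.03 and 165 CPM). The untreated wild-type pools of Cd74 spread from 13.7 to 341 CPM, and 81.7% of its untreated UMIs lay in the top 10% of cells. These differences between genotypes were not tested, since each condition is 1 sample.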

How the results depend on the processing

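The count of genes depends most on the CPM minimum. With a minimum of 20 CPM, 264 genes were higher and 204 lower (110 and 204 outside the classes), with 100 CPM 87 and 11 (24 and 11), and with none 1242 and 1547 (1063 and 1544). Keeping all wells gave 232 higher genes, 98 of them outside the classes. Thinning gave 49 lower genes, 49 outside the classes. The cause of these moves was not tested beyond the fewer or more genes that each minimum admits. Leaving out 1 library pool at a time gave at least 149 higher and 26 to 46 lower genes, with 45 to 56 and 26 to 46 outside the classes. At a minimum of 100 CPM the median of the FoxO-type list reversed to 2.29, since only Cited2 was left. The repeat-like models and mt-Atp6 turned with single pools. With 1 pool left out, the log2 ratio of Gm21738 ranged from -2.08 to 0.38 (without untreated pool 2324AA), and the change in the share of cells, in percentage points, from -24.8 to 0.775 for Gm10800, -18.2 to 9.54 for Gm10801, -19.1 to 7.84 for Gm21738, -22.7 to 1.89 for Gm26870 and -17.0 to 1.69 for mt-Atp6. Other log2 ratios of named genes kept their sign under these settings where they had been called. No paired analysis was possible because the labels give each condition 1 sample. Depth limits genes near the minimum most, where the called genes had a median of 73 (higher) or 51 (lower) UMIs in their lower sample.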
